A study of Homo sapiens with 12 samples.

Results

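The 42 genes described here encode the proteins that carry a cell through G2 and mitosis: the mitotic cyclins and CDK1, the mitotic kinases, the spindle checkpoint, the anaphase machinery, centromere and kinetochore proteins, mitotic kinesins, spindle and cytokinesis proteins, and 2 transcription factors of this program. They are a list of symbols set by role and not by a measured value, although earlier results of these data were known when it was made, and all 42 matched a row of the count table of 58884 genes. RNA-seq counts were available for 2 diffuse large B-cell lymphoma (DLBCL) cell lines, U2932 and TMD8, each an established line and labelled wild type. Cells of each line were treated for 4 h with 20 µg/mL of rituximab (R), ofatumumab (OF) or a human IgG1 isotype control, which gave 6 conditions. R and OF are both antibodies against CD20, a B-cell surface protein, and the isotype control shares their antibody class. Each condition had 2 libraries, from 2 cultures of the line that had been kept apart for a week, so p-values measure the spread between these cultures of 1 line and not between patients.

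Entry into mitosis is driven by CDK1 bound to cyclin A or cyclin B, which CDC25 phosphatases activate. The Aurora and Polo-like kinases then build the spindle, kinetochores join chromosomes to microtubules, and the checkpoint kinases hold the cell until every chromosome is attached. CDC20 finally turns on the anaphase-promoting complex (APC/C), which marks cyclin B and securin for destruction, and cytokinesis follows. Transcripts of most of these genes rise from S phase to mitosis and fall in G1, so their level in a culture depends on how many cells are in G2 and M. In bulk RNA, fewer cells in G2 and M and less of these RNAs per cell cannot be told apart.

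The 12 libraries held 15440226 to 27110612 counts, and the 42 genes took 0.524 to 0.697% of them. B-cell markers were present in both lines, between 11.7 and 1685 CPM (counts scaled to a common library size) in U2932 and between 14.98 and 2110 CPM in TMD8, while erythroid markers were at 0 and T-cell, NK and myeloid markers stayed under 1 CPM. EPCAM, an epithelial marker, lay between 29.6 and 41.1 CPM in U2932, and no epithelial or fibroblast marker passed 5.42 CPM in TMD8. In U2932, ribosomal protein genes held 4.44 and 4.74% of counts with isotype and 6.03 to 6.56% with the antibodies. Among the TMD8 libraries, 2 were unlike the remaining 4: in OF replicate 2 and isotype replicate 2 the share of ribosomal protein genes was 7.16 and 6.50%, against 10.0 to 10.8%, and that of mitochondrial genes 3.73 and 3.99%, against 5.70 to 6.23%. The part that these differences play in the results below was not tested. Results for TMD8 that rest on those 2 libraries are given with and without them.

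At baseline, with isotype, the 42 genes covered a wide range of levels. Per kilobase of transcript, MYBL2, a transcription factor of the program, was highest in both lines, at 156 CPM per kb in U2932 and 132 in TMD8, followed by CCNB1, which encodes cyclin B1, at 112 and 130.0 CPM per kb. In TMD8 those first places were not separated by the replicates, since CCNB1 alone was 356 and 208 CPM in the 2 isotype libraries. TOP2A, which encodes the topoisomerase that untangles sister chromatids, reached 100.3 CPM per kb in U2932 and 109.7 in TMD8. The lowest levels were those of ANLN, CDC25C and KIF14, between 5.99 and 8.80 CPM per kb in U2932, and of PRC1, at 0.206 and 0.173 CPM per kb.

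**Figure D1:**
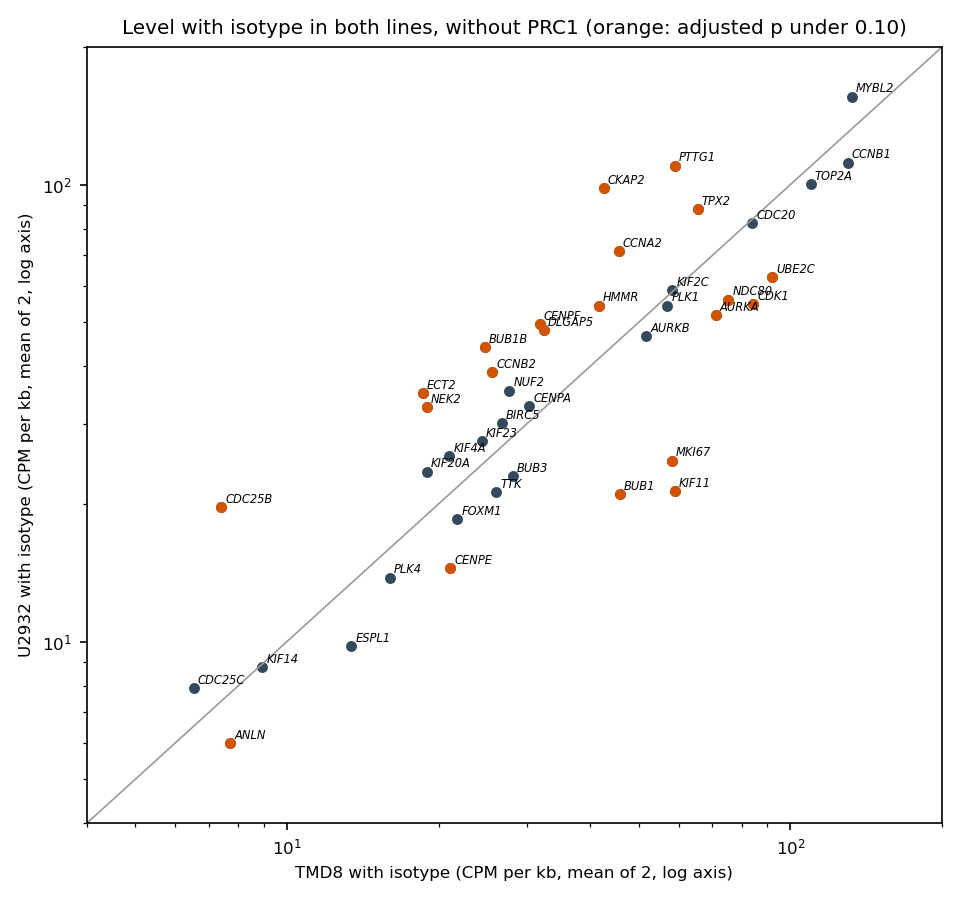
Mean level with isotype of 41 genes (PRC1 lies below the axes), as CPM per kilobase of the longest transcript, in TMD8 (x axis) and U2932 (y axis), both on log scales, with the line of equal levels. Orange points are the 21 genes that differed between the lines at an adjusted p under 0.10 (edgeR); CDC25B and CKAP2 lie farthest above the line and KIF11 and MKI67 farthest below it.

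Comparing the lines with isotype asked whether the program already stood at different levels before CD20 was bound. In U2932, 12 members were higher than in TMD8 and 9 were lower (edgeR quasi-likelihood test, adjusted p under 0.10), against 33.2% of all 16187 genes tested higher and 33.7% lower. Both counts are smaller shares of the members than of all genes. The higher ones were CCNA2, CCNB2, BUB1B, CDC25B, CENPF, TPX2, NEK2, PTTG1, ECT2, HMMR, DLGAP5 and CKAP2, and the lower ones CDK1, AURKA, BUB1, CENPE, KIF11, MKI67, NDC80, UBE2C and ANLN. On leaving out each of the 12 libraries in turn, 13 of these 21 were called every time. Without TMD8 isotype replicate 1 the split was 18 higher and 5 lower, and without isotype replicate 2 it was 11 and 14.

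KIF11, the plus-end motor that pushes spindle poles apart, showed the widest gap downward: 96.2 and 111 CPM in U2932 against 282 and 290.4 CPM in TMD8, a log2 difference of −1.46 ± 0.12 (SE). CDC25B, a phosphatase that activates CDK1, showed the widest gap upward, 74.2 and 67.2 CPM against 19.6 and 33.6 CPM, or 1.40 ± 0.22 on the log2 scale. In neither gene did the 2 lines overlap. The checkpoint kinase genes went opposite ways, BUB1 by −1.13 ± 0.14 and BUB1B by 0.84 ± 0.13. MKI67, which encodes the proliferation antigen Ki-67, was 285 and 346 CPM in U2932 and 510.3 and 963 CPM in TMD8, and its −1.22 ± 0.32 came from cultures of TMD8 that differed widely from each other. CKAP2, a spindle microtubule protein, was higher in U2932 by 1.21 ± 0.15. Scaled by library size only, 19 members were higher and 6 lower, with the median of all genes at 0.11 and that of the members at 0.21 rather than 0.06.

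In U2932, 4 of 6 centromere and kinetochore members (CENPA, CENPE, CENPF and NDC80) and 4 of 6 kinesins were lower with each antibody than with isotype, while ANLN and BIRC5 were the called members with the largest increases. With R, 15 of the 42 genes were lower than with isotype and 6 were higher (edgeR, adjusted p under 0.10), against 17.4% of all 14635 genes lower and 16.8% higher. With OF, 14 were lower and 6 higher, against 17.8 and 18.7%. The members' median log2 fold change was −0.12 with R and −0.14 with OF, and that of all genes −0.02 and 0.01. Without isotype replicate 2 the members' medians were −0.04 and −0.07, and without isotype replicate 1 they were −0.21 and −0.21. Most changes were small: 4 members passed a 1.5-fold limit with each antibody, NDC80, CENPE, BIRC5 and ANLN in both, or 9.52% of them against 10.2% of all genes with R and 11.1% with OF. Both comparisons use the same 2 isotype libraries and are therefore not independent of each other. The higher share of ribosomal protein counts with the antibodies (6.03 to 6.56% against 4.44 and 4.74%) moved with these groups as well, and its part was not tested.

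**Figure D2:**
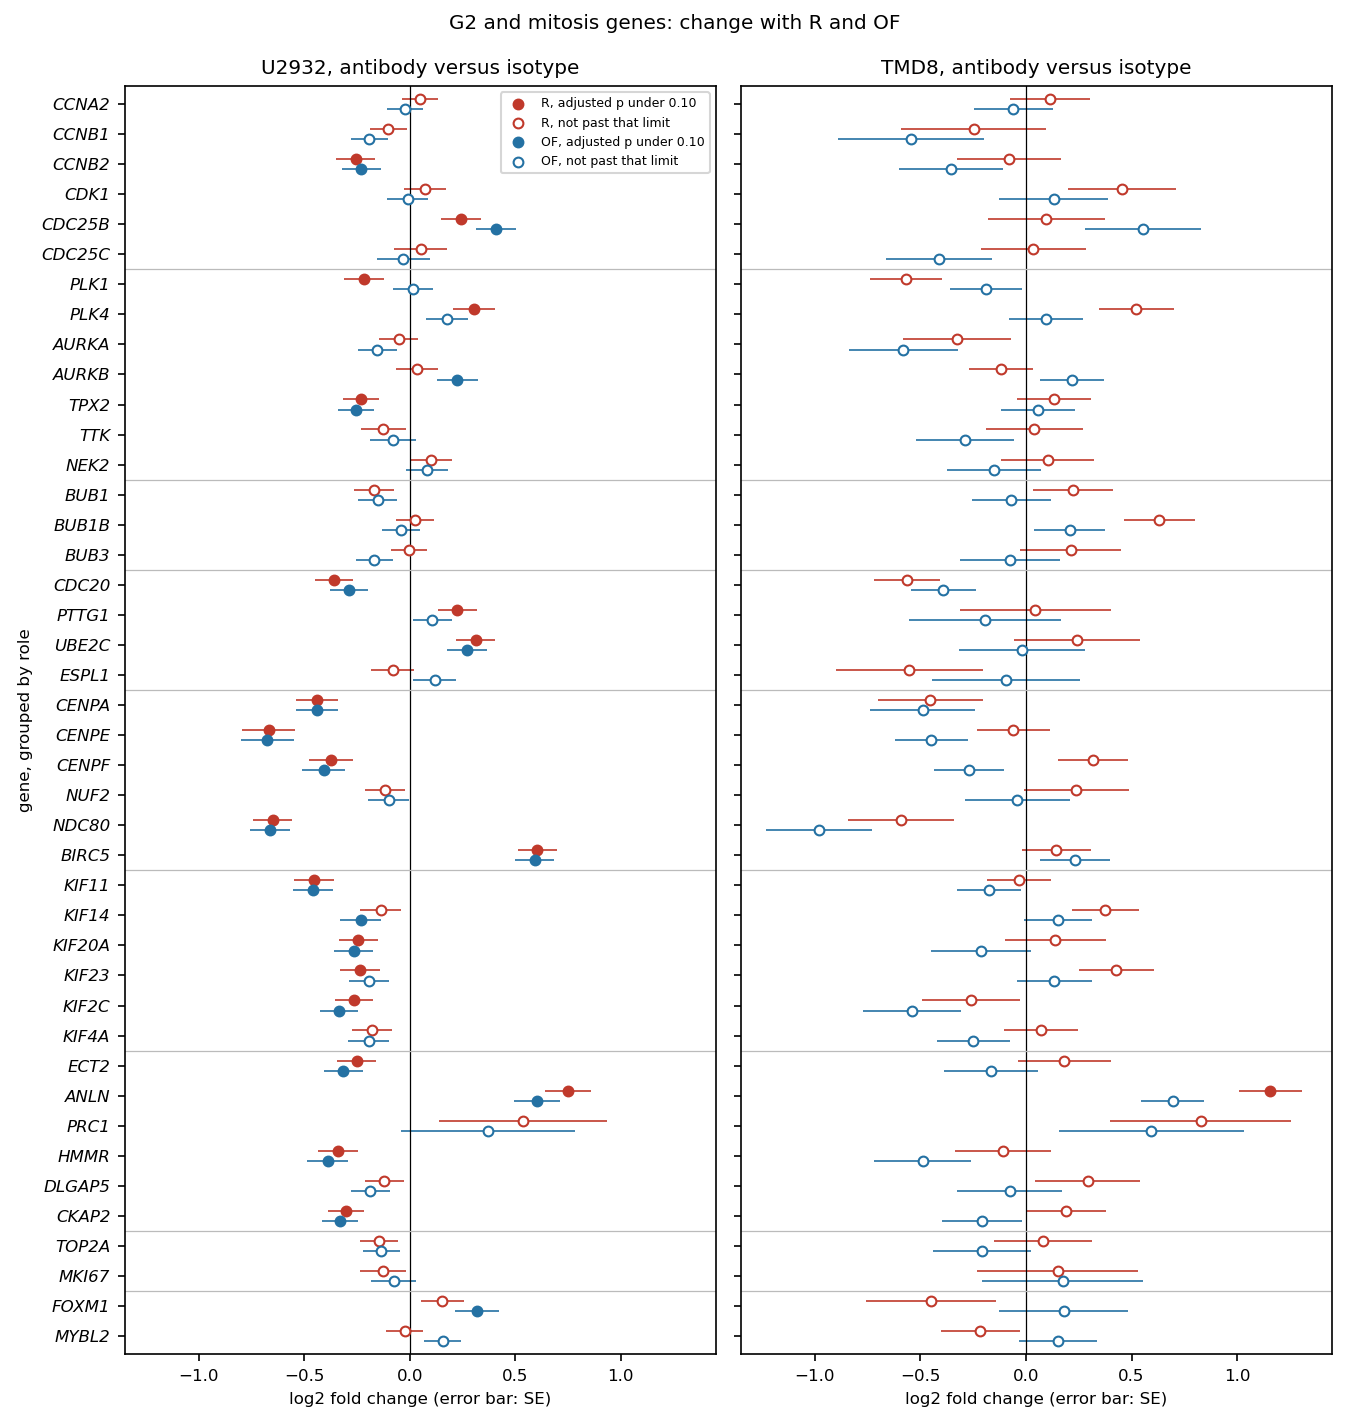
Log2 fold change against isotype (x axis) of each of the 42 genes (y axis, grouped by role), with R in red and OF in blue, in U2932 (left) and TMD8 (right). Error bars are standard errors, and filled points passed an adjusted p of 0.10 in edgeR. In U2932, 21 points are filled for R and 20 for OF, while in TMD8 the point of ANLN with R is the single filled one and the error bars are wider.

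Centromere and kinetochore genes held the largest decreases. NDC80, which encodes the kinetochore protein that grips microtubules, was 119 and 125 CPM with isotype, 72.5 and 82.6 CPM with R and 76.6 and 76.6 CPM with OF. Every antibody library lay under both isotype libraries, and the change was −0.65 ± 0.09 with R and −0.66 ± 0.09 with OF (edgeR adjusted p = 8.66e-06 and 7.39e-06). CENPE, a kinetochore motor that moves chromosomes to the spindle equator, was 99.4 and 150.5 CPM with isotype, 72.8 and 84.5 with R and 76.2 and 79.7 with OF. Its groups did not overlap either, but isotype replicate 2 was far above replicate 1, and it changed by −0.67 ± 0.13 and −0.68 ± 0.13. CENPF, a large protein that joins the kinetochore in G2, had the same uneven isotype pair, 431 and 591 CPM against 404 and 386 with R and 374 and 394 with OF, and its call was lost with each antibody without isotype replicate 2, and with R in DESeq2 as well. CENPA, the histone H3 variant that marks centromeres, changed evenly, from 47.2 and 47.9 CPM with isotype to 35.0 and 35.2 with R and 34.6 and 35.4 with OF, a log2 fold change of −0.44 ± 0.10 and −0.44 ± 0.10. NUF2, the partner of NDC80 in the same complex, gave −0.12 ± 0.10 and −0.10 ± 0.10 and was not called.

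BIRC5 (chr17:78214186-78225636, GRCh38) was the exception in that group. It encodes survivin, a subunit of the chromosomal passenger complex that also blocks cell death, and it was 83.4 and 79.5 CPM with isotype against 119.9 and 128 CPM with R and 117 and 127 CPM with OF. The increase was 0.60 ± 0.09 with R and 0.59 ± 0.09 with OF (edgeR adjusted p = 1.80e-05 and 2.52e-05), with no overlap of the libraries. ANLN, which encodes anillin, the scaffold of the cleavage furrow, rose the most with R: 25.9 and 31.5 CPM with isotype, 49.4 and 47.2 with R and 41.7 and 45.2 with OF, or 0.75 ± 0.11 (adjusted p = 9.97e-06) and 0.60 ± 0.11 (adjusted p = 1.64e-04). All antibody libraries lay above both isotype libraries.

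**Figure D3:**
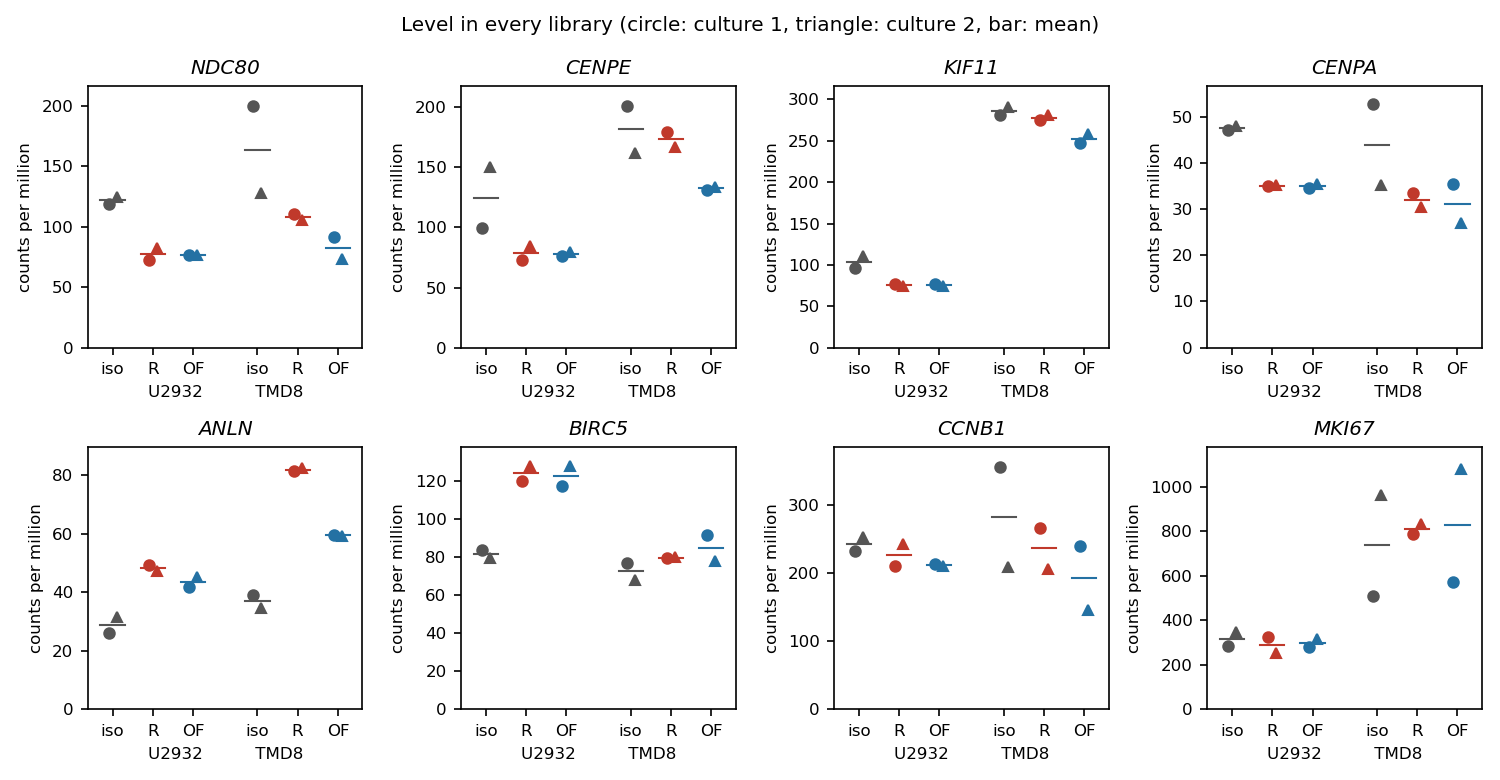
Level in CPM (y axis, from 0) of 8 genes in each of the 12 libraries, for U2932 on the left and TMD8 on the right of each panel; circles are culture 1, triangles culture 2, bars the mean of both. NDC80, CENPE, KIF11 and CENPA lie lower and ANLN and BIRC5 higher with either antibody in U2932, while CCNB1 and MKI67 in TMD8 lie far apart between the 2 cultures with isotype and with OF.

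All 6 kinesin genes had negative values with both antibodies, and 4 fell with each. KIF11 fell from 96.2 and 111 CPM to 76.4 and 74.8 CPM with R and 76.3 and 74.0 CPM with OF, by 0.46 ± 0.09 and 0.46 ± 0.10 on the log2 scale. KIF20A, a motor of the central spindle, was 73.8 and 76.9 CPM with isotype, 61.6 and 65.7 with R and 63.3 and 61.6 with OF, and KIF2C, a microtubule depolymerase, gave −0.26 and −0.33. The kinesin called with R alone was KIF23, which bundles the midzone (−0.24 with R, −0.19 with OF), and with OF alone KIF14 (−0.14 and −0.23); the difference between R and OF was not called for either, and the call of KIF14 was lost with GC content or gene length correction. KIF4A, which compacts chromosomes and organises the midzone, gave −0.18 and −0.20 and was not called. Among spindle and cytokinesis genes, ECT2 (the activator of RhoA at the furrow), HMMR and CKAP2 fell with both antibodies, by 0.25 to 0.34 with R and 0.32 to 0.39 with OF, and DLGAP5 was not called.

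Among the cyclin genes and CDK1, CCNB2 alone was called. CDK1 itself was 101 and 112 CPM with isotype, 103 and 122 with R and 101 and 110.1 with OF. CCNA2, which encodes cyclin A2, was 200.3 and 199 CPM, 203 and 211 CPM and 195 and 196 CPM in the same order. CCNB1 was 232 and 252 CPM with isotype, 209.8 and 242 with R and 213 and 210.2 with OF. None of these 3 was called. The libraries with R and with isotype overlapped for CDK1 and CCNB1, and for CCNA2 they lay a few CPM apart. With OF, both libraries of CCNA2 and of CCNB1 lay under both isotype libraries, and those of CDK1 overlapped them. CCNB2, the other B-type cyclin, fell by 0.26 ± 0.09 with R and 0.23 ± 0.09 with OF. CDC25B rose from 74.2 and 67.2 CPM to 86.3 and 81.3 with R and 97.4 and 89.6 with OF (0.24 ± 0.10 and 0.41 ± 0.10), while CDC25C, another activator of CDK1, was not called. The call of CDC25B with R was lost when scaled by library size only and with no filter.

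The mitotic kinases split. PLK1, the Polo-like kinase of spindle assembly, was 131 and 111 CPM with isotype, 106 and 102 with R and 122 and 122 with OF. It was called lower with R alone (−0.22 ± 0.10, edgeR adjusted p = 0.0938), and that call was lost in DESeq2 and on upper-quartile normalization. PLK4, the kinase of centriole duplication, went the other way, 49.1 and 56.9 CPM with isotype, 62.3 and 68.6 with R and 58.3 and 61.1 with OF, and was called higher with R (0.30 ± 0.10), though not when scaled by library size only. AURKA, the Aurora kinase of the poles, was 111 and 122 CPM with isotype, 111 and 114 with R and 107 and 101 with OF, and was not called. AURKB, the Aurora kinase of the passenger complex, was 61.2 and 55.4 CPM with isotype, 62.0 and 57.4 with R and 70.5 and 65.5 with OF. Its call with OF (0.23 ± 0.10) held in 2 of 9 settings that used every library. TPX2, the activator of AURKA, fell by 0.23 ± 0.09 and 0.26 ± 0.09, and TTK and NEK2 were not called.

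None of the 3 spindle checkpoint genes BUB1, BUB1B and BUB3 was called, with log2 fold changes between −0.17 and 0.02 with R and between −0.17 and −0.04 with OF. BUB1B, which encodes BUBR1, was 155 and 173 CPM with isotype, 165 and 169 with R and 152 and 167 with OF. Of the anaphase genes, CDC20 fell from 153 and 139 CPM to 115 and 114 with R and 119 and 119.8 with OF, a log2 change of −0.36 ± 0.09 and −0.29 ± 0.09. UBE2C, the ubiquitin-conjugating enzyme of the APC/C, rose instead, from 56.0 and 58.9 CPM to 69.4 and 73.2 with R and 67.1 and 71.2 with OF (0.31 ± 0.09 and 0.27 ± 0.09). PTTG1, which encodes securin, was called higher with R (0.22 ± 0.09) and gave 0.11 ± 0.09 with OF, and ESPL1, which encodes separase, was not called. The calls of PTTG1 with R and UBE2C with OF were lost when scaled by library size only, with no filter and with gene length correction, and that of UBE2C with R in the last of these.

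TOP2A and MKI67 were not called in U2932. TOP2A was 516 and 639 CPM with isotype, 513 and 531 with R and 521 and 528 with OF, and MKI67 was 285 and 346, 326 and 252 and 279 and 318 CPM in that order. In both genes the range with isotype reached into the range with the antibodies. Of the transcription factors, FOXM1, which switches on G2 genes, was 71.6 and 57.5 CPM with isotype, 73.0 and 70.6 with R and 78.7 and 81.7 with OF, and was called higher with OF (0.32 ± 0.10), though not when scaled by library size only. MYBL2, which acts earlier with the MuvB complex, was 457 and 386 CPM, 413 and 416 CPM and 462 and 474 CPM and was not called.

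R and OF could be set against each other directly. None of the 42 genes was called between them in U2932 (edgeR, adjusted p under 0.10 or under 0.30), against 0.00683% of all genes at the first limit, and 2 had an unadjusted p under 0.05, PLK1 at −0.23 ± 0.10 and MYBL2 at −0.18 ± 0.09. DESeq2 also called 0. The differences ran from −0.23 to 0.17 on the log2 scale, with standard errors of 0.08 to 0.13 for all members other than PRC1. For NDC80 and BIRC5 they were 0.01 ± 0.09 and 0.01 ± 0.09.

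The number of members called in U2932 changed when single libraries were left out. Shares of all genes called in those fits are not given here, so these counts do not set the members apart. Without R replicate 1 or without OF replicate 1, 13 rather than 21 members were called with R, and without either OF library 11 rather than 20 were called with OF. Without isotype replicate 1, 31 were called with OF. CDC20, CENPA, CENPE, KIF11, NDC80, BIRC5, ANLN and CKAP2 were called with R on leaving out each of the 6 libraries of U2932 in turn, and CDC25B, CENPA, CENPE, KIF11, NDC80, BIRC5, ANLN, HMMR and CKAP2 were called with OF. With all 12 libraries of both lines in one fit, 5 were called with each antibody, CENPE, KIF11, NDC80, BIRC5 and ANLN. Scaled by library size only, 3 members were higher and 22 lower with either antibody, as the median of all genes moved to −0.12 with R and −0.07 with OF. With GC content correction, the members' median moved to −0.06 with both antibodies.

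Promoters of this program often carry a cell cycle homology region (CHR), most often with the letters TTTGAA and in some genes TTTAAA instead, near the start site, together with CCAAT boxes bound by NF-Y. RefSeq promoters of 300 bases (GRCh38.p14, 250 before and 50 after the start) were at hand for 35 of the 42 genes. Of those 35, 22 held TTTGAA on either strand between 100 bases before and 50 after a start, or 62.9%, against 8.46% of the 27305 genes with a promoter. CCAAT on either strand lay in the 300 bases of 27, or 77.1% against 39.7%, and 16 held at least 2 such boxes, 45.7% against 12.9%. These matches are letters in a window and not measured binding. Members with TTTGAA near the start had a median log2 fold change of −0.16 with R in U2932 and the 13 without it −0.10. Those 13 are not free of a CHR. CCNB1, CDC25B, CENPE, KIF20A, KIF2C and PTTG1 among them hold TTTAAA in the same window. With OF the medians were −0.19 and −0.14. In TMD8 the order was the opposite one, 0.17 with and 0.08 without TTTGAA for R and −0.13 and −0.19 for OF. The promoters of 5 members whose levels moved in U2932 follow, 5′ to 3′, with the 3 motifs on either strand in capitals.
NDC80 (chr18:2571307-2571606, plus strand): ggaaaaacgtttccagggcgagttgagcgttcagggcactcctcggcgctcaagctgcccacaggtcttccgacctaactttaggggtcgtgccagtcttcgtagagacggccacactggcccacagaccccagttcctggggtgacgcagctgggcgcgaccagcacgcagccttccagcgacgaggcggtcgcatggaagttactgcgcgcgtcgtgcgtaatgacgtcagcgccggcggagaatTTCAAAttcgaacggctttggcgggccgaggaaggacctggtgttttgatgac
CENPE (chr4:103198294-103198593, minus strand): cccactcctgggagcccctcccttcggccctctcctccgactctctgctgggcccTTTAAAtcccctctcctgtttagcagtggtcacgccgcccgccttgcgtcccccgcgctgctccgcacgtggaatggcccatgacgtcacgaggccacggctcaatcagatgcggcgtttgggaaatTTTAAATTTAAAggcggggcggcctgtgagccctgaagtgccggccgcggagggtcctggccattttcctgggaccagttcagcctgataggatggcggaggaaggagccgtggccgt
KIF11 (chr10:92592880-92593179, plus strand): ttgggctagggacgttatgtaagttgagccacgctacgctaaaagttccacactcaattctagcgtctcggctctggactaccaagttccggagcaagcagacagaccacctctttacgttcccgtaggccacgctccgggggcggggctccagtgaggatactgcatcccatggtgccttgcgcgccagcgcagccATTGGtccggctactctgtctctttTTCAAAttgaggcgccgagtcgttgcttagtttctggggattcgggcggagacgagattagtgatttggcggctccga
CDC20 (chr1:43358731-43359030, plus strand): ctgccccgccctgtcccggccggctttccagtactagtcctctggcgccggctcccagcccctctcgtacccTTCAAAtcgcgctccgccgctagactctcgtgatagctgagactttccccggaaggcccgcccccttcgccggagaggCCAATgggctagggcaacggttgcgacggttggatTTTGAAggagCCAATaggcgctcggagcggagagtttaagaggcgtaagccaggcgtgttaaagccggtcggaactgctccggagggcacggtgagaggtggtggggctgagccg
ANLN (chr7:36389612-36389911, plus strand): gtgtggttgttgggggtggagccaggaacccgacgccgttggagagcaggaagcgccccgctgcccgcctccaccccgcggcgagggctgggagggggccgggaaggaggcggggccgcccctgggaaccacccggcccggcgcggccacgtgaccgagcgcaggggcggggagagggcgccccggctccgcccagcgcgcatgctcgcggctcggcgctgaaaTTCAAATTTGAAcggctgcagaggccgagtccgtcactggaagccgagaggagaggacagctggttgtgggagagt

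ANLN rose and NDC80 and KIF11 fell, yet all 3 hold TTTGAA that begins within 30 bases before the start, on the opposite strand to the one printed. In ANLN the match stands next to a second one on the other strand, starting 26 and 20 bases before the start. KIF11 and CDC20 each carry a CCAAT box as well, in KIF11 on the opposite strand, 53 bases before the start, and in CDC20 at 100 and 55 bases before it, and CDC20 holds TTTGAA at 178 and 65 bases before its start. CENPE holds the other form, TTTAAA, at 3 places, and lacks the first. In this window NDC80, CENPE and ANLN hold no CCAAT.

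Other genes of the cell cycle were described from 8 lists, whose counts stand against 17.4% of all genes lower and 16.8% higher with R, and 17.8 and 18.7% with OF. Among 36 further kinetochore genes in U2932, 11 were lower and 7 higher with R, and 15 and 7 with OF, with medians of −0.14 and −0.17. ZWINT, an outer kinetochore protein, rose by 1.00 on the log2 scale with R and 0.92 with OF, while CENPL fell by 0.81 and 0.85. Of 20 condensin and cohesin genes, 9 were lower and 2 higher with R and 10 and 2 with OF (medians −0.17 and −0.21), and the cohesin loader NIPBL gave −0.96 with R and −0.92 with OF. Of 20 further spindle and cytokinesis genes, 6 were lower and 0 higher with either antibody (medians −0.12 and −0.13), led by KIF18A at −0.68 and −0.73. Among 13 further G2 regulators, CKS2 and CKS1B, small partners of CDK1, rose by 0.60 and 0.56 with R, and CDC25A fell by 0.45. That list gave 5 higher and 4 lower with R and 3 and 3 with OF, with medians of −0.05 and 0.02. The 17 genes for APC/C subunits and regulators gave 5 higher and 1 lower with R and 5 and 2 with OF, with a median of 0.13 each time.

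Against the same shares of all genes, the lists of the G1 arrest pathway and of S phase held calls in both directions. CDKN1A, which encodes the CDK inhibitor p21, rose by 0.79 with R and 0.73 with OF in U2932 (edgeR adjusted p = 5.35e-07 and 1.83e-06), and GADD45B by 0.55 and 0.53. With R, the 13 genes of the p53 and p21 axis included 3 called higher and 2 lower, and with OF 4 and 3 (medians 0.06 and 0.03). Among 22 DREAM and E2F genes, which repress or activate transcription through the cell cycle, R gave 3 called higher and 5 lower and OF 4 and 7 (medians −0.05 and −0.04), with E2F6 at 0.84 and E2F7 at −0.40 with R. Of 28 S-phase genes, 4 were higher with R, led by TYMS at 0.75, and 6 lower, and with OF 6 and 7 (medians −0.04 and −0.05).

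In TMD8 the 2 cultures of a condition lay far apart for many of these genes. Over the members, the median of the log2 difference, replicate 2 minus replicate 1, was −0.35 with isotype, −0.22 with OF and −0.10 with R, where the median of all genes was between 0 and 0.02. CCNB1 was 356 and 208 CPM in the isotype pair, 240.2 and 145 in the OF pair and 267 and 206 in the R pair, so replicate 2 was the lower one each time. MKI67 ran the other way, at 510.3 and 963, 573 and 1081 and 788 and 833 CPM in the same order. In U2932 the medians were 0.13 with isotype, 0.02 with OF and 0.08 with R. The standard error of a member's log2 fold change between R and isotype had a median of 0.09 in U2932 and 0.23 in TMD8.

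**Figure D4:**
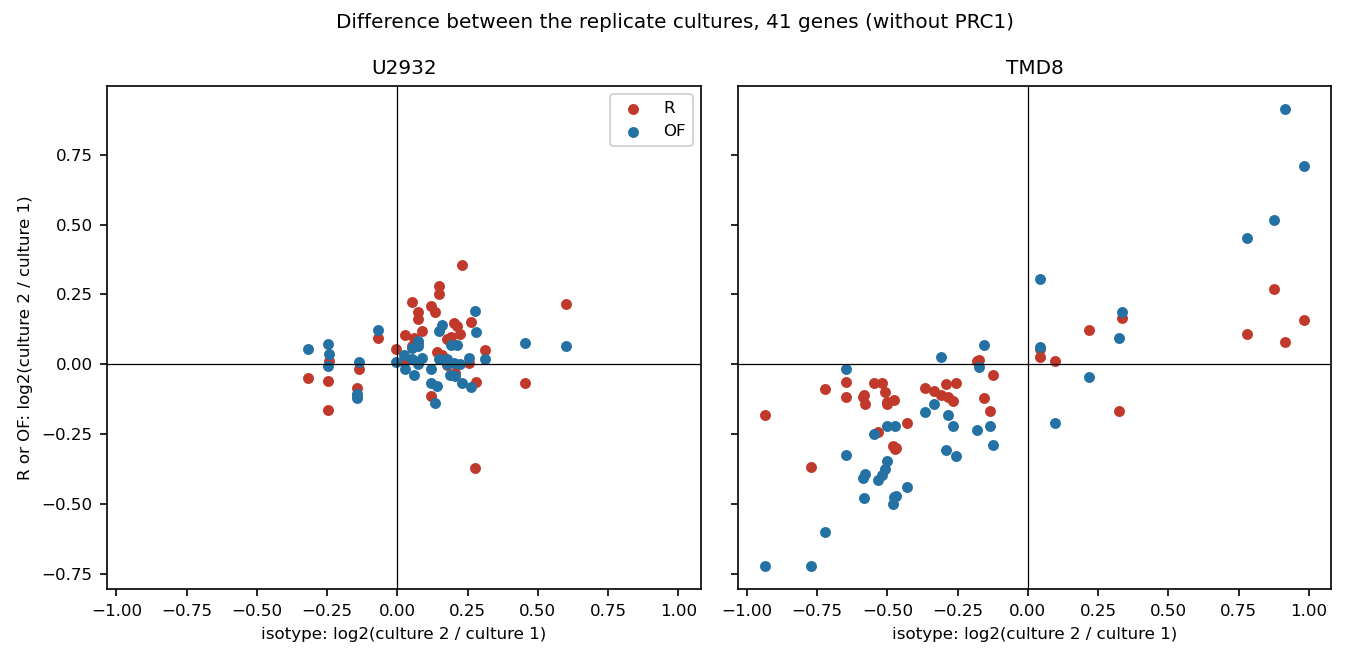
Log2 ratio of culture 2 to culture 1 for 41 genes (without PRC1) with isotype (x axis) and with R (red) or OF (blue) (y axis), in U2932 (left) and TMD8 (right). In TMD8 the OF points spread along the diagonal, and the R points spread less on the y axis. The standard deviation over all 42 genes was 0.47 with isotype, 0.36 with OF and 0.13 with R in TMD8. Median differences there were −0.35 with isotype, −0.22 with OF and −0.10 with R, and in U2932 the genes stay closer to 0.

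With this spread, ANLN was the single member called in TMD8 with R, or 2.38% of the 42 against 0.647% of all 14227 genes (edgeR, adjusted p under 0.10). It was 39.1 and 34.7 CPM with isotype, 81.5 and 82.4 with R and 59.7 and 59.3 with OF, and no library of one group lay within another. The change was 1.16 ± 0.15 with R and 0.69 ± 0.15 with OF (edgeR adjusted p = 0.0717 and 0.136). DESeq2 called BUB1B and ANLN with R, and 6 members had an unadjusted p under 0.05. The edgeR call of ANLN was lost without R replicate 1, R replicate 2 or isotype replicate 2. With OF, 0 members were called, against 0.815% of all genes, and 4 had an unadjusted p under 0.05 (NDC80, CENPE, CDC20 and ANLN), while DESeq2 called NDC80 and ANLN. The members' median was 0.10 with R and −0.12 with OF. Both medians rested on single libraries. Without isotype replicate 2 the median with R turned to −0.03 and that with OF was −0.32, and without isotype replicate 1 they were 0.28 and 0.08. Without OF replicate 1 the median with OF was −0.28 and without OF replicate 2 it was −0.03. Without R replicate 1 the median with R was 0.04 and without R replicate 2 it was 0.15. Scaled by library size only, the median with R was −0.03, with that of all genes at −0.16.

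Since libraries of the same number came from the same culture, the fit with the replicate block bears on TMD8. The block takes the culture difference of a gene to be the same with every antibody. Over the members, the standard deviation of that difference was 0.47 with isotype and 0.36 with OF but 0.13 with R. R thus did not share it in full, and the part this plays in the blocked calls was not tested. With the block, 5 members were higher with R (ANLN, BUB1B, PLK4, CDK1 and KIF23) and 3 lower (CDC20, PLK1 and NDC80), against 8.99 and 8.73% of all genes. With OF, 2 were higher (ANLN and CDC25B) and 7 lower (NDC80, AURKA, KIF2C, CCNB1, HMMR, CENPA and CENPE), against 7.45 and 6.87%. ANLN changed in that fit by 1.16 ± 0.13 with R and 0.70 ± 0.13 with OF. With OF, KIF2C, HMMR and CENPA changed by −0.53 ± 0.14, −0.48 ± 0.14 and −0.48 ± 0.15. Without OF replicate 2 and isotype replicate 2, 16 members were called with R against 30.3% of all genes, PLK4, BUB1B, CDC25B, KIF14, MKI67 and ANLN higher and CCNB1, CCNB2, PLK1, AURKA, CDC20, CENPA, KIF2C, NDC80, PTTG1 and HMMR lower. With OF it was 14 against 23.4%, CDC25B, ANLN and FOXM1 higher and CCNB1, CCNB2, AURKA, CDC25C, CENPA, CENPE, CENPF, KIF2C, TOP2A, NDC80 and HMMR lower. That alternative leaves 1 library each for OF and isotype, which are assumed to vary like the R pair. Of the 169 other cell cycle genes, 1 was called in TMD8 with R, CCNE2, which encodes cyclin E2 (1.42, edgeR adjusted p = 0.0738). With OF 0 were called, and the shares of all genes were 0.647 and 0.815%. An unadjusted p under 0.05 was found for 27 and 23, and DESeq2 called 10 and 7, counts given without the share of all genes. With the replicate block, 23 of the 169 were higher and 8 lower with R, and 14 and 8 with OF. CDKN1A gave 0.61 with R and 0.76 with OF in TMD8 and was not called without the block.

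Kinetochore, anaphase and kinase genes were among those lower in the blocked fit in TMD8. NDC80 was 199.6 and 127 CPM with isotype, 110.4 and 106 with R and 91.7 and 73.3 with OF, and isotype replicate 1 stood far above replicate 2. With the replicate block its change was −0.56 ± 0.16 with R and −0.96 ± 0.16 with OF (edgeR adjusted p = 0.0610 and 0.0132), and without OF replicate 2 and isotype replicate 2 it was −0.90 and −1.13. CDC20 was 144 and 154 CPM with isotype, 99.9 and 101 with R and 121 and 105 with OF, and the blocked change with R was −0.56 ± 0.13. PLK1 was 113 and 141 CPM, 89.9 and 80.0 CPM and 107 and 114 CPM, which gave −0.56 ± 0.15 with R in the blocked fit. In CDC20 and PLK1 both R libraries lay under both isotype libraries.

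AURKA was 191 and 128 CPM with isotype, 132 and 122 with R and 124 and 88.8 with OF. OF replicate 1 lay just under isotype replicate 2, and the blocked change with OF was −0.57 ± 0.15. CENPE was 201 and 162 CPM with isotype, 179.9 and 167 with R and 131 and 134 with OF, and fell with OF by 0.44 ± 0.14 in the blocked fit. CCNB1, whose libraries are given above, fell with OF by 0.54 ± 0.15. KIF11, one of the members that fell in U2932, was 282 and 290.4 CPM with isotype, 276 and 281 with R and 247 and 258 with OF. Its antibody libraries lay under both isotype libraries, R replicate 2 only just. Without the block its log2 fold change was −0.03 ± 0.15 with R and −0.17 ± 0.15 with OF, and it was not called with or without the block.

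Beside ANLN, the genes called higher with R in the blocked fit in TMD8 were BUB1B, PLK4, CDK1 and KIF23. BUB1B was 96.5 and 87.8 CPM with isotype, 150.2 and 134 with R and 114 and 97.7 with OF, a blocked change of 0.63 ± 0.12 with R (edgeR adjusted p = 0.0185). About 10.2% of the exon bases of BUB1B also belong to the read-through gene BUB1B-PAK6 in GENCODE 29. PLK4 was 67.1 and 55.8 CPM, 91.8 and 83.8 CPM and 70.3 and 60.4 CPM in that order, and rose by 0.53 ± 0.12 with R in the blocked fit. CDK1 was 191 and 137 CPM with isotype, 247 and 201 with R and 209.8 and 148 with OF, and rose by 0.47 ± 0.13 in the same fit, a call lost with the block and GC content correction (0.34, edgeR adjusted p = 0.125). KIF23 rose with R by 0.44 ± 0.13. CDC25B, 19.6 and 33.6 CPM with isotype, was 27.3 and 29.4 CPM with R and 33.0 and 45.1 CPM with OF, and rose with OF by 0.58 ± 0.17.

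The remaining members followed in every library were not called in TMD8, with or without the block. BIRC5, which rose in U2932, was 76.8 and 67.8 CPM with isotype, 79.2 and 79.8 with R and 91.5 and 77.7 with OF. CENPF was 345 and 309.6, 423 and 389.6 and 264 and 278 CPM in that order, and its 3 groups did not overlap, with R highest and OF lowest. UBE2C was 105 and 63.5 CPM with isotype, 102 and 96.2 with R and 99.8 and 65.8 with OF. AURKB was 60.0 and 69.7, 56.9 and 61.9 and 76.3 and 73.9 CPM, and KIF20A 70.5 and 50.7, 69.4 and 63.5 and 60.6 and 43.6 CPM. For UBE2C and KIF20A the antibody libraries overlapped those with isotype, and for AURKB those with OF lay above them. For BIRC5 all antibody libraries lay above both isotype libraries, OF replicate 2 only just. Its log2 fold change was 0.14 ± 0.16 with R and 0.23 ± 0.16 with OF. TOP2A was 740.0 and 523 CPM with isotype, 699 and 633 with R and 587 and 503 with OF, and CCNA2 139 and 116, 140.4 and 134 and 135 and 108 CPM. FOXM1 was 53.6 and 98.4, 50.1 and 60.3 and 70.4 and 101 CPM, and MYBL2 317 and 399, 289 and 324 and 370.4 and 421 CPM. For both transcription factor genes the mean was lowest with R, and the R and isotype libraries overlapped.

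Set directly against OF in TMD8, R gave higher values for 33 of the 42 genes, with a median of 0.28 against 0.01 for all genes, but 0 were called (edgeR, adjusted p under 0.10), against 0% of all genes. DESeq2 also called 0, and 4 members had an unadjusted p under 0.05: CENPF (0.59 ± 0.17), ANLN (0.46 ± 0.15), PLK4 (0.43 ± 0.18) and BUB1B (0.42 ± 0.17). R was above OF for 32 members in culture 1 and for 34 in culture 2. The members are not independent of each other, so these sign counts carry no test. Of the 169 other cell cycle genes, 122 were also higher with R than with OF and 47 lower, with a median of 0.16. The sign went with base composition, in groups formed after the values were seen: all 7 members with a GC content over 55% (PLK1, AURKB, CDC20, CDC25B, ESPL1, FOXM1 and MYBL2) were lower with R, at a median of −0.38, and 33 of the other 35 were higher, at a median of 0.29. In U2932 the same 7 were also lower with R, at a median of −0.18 (−0.10 corrected). In TMD8, after a correction for each library's trend on GC content, these medians were −0.14 and 0.18, and 0.17 over all members. The members' median GC content was 43.2%, against 48.5% for the genes tested in TMD8. Against isotype, 6 of the 7 and 7 of the other 35 were positive with OF in U2932, and 1 and 26 with R in TMD8. With R in U2932 these counts were 3 and 11, and with OF in TMD8 4 and 10. With OF in U2932, CDC25B, FOXM1 and CDC20 changed by 0.24, 0.20 and −0.44 with the correction, rather than 0.41, 0.32 and −0.29. Without OF replicate 2 and isotype replicate 2, 5 members were higher with R than with OF (CENPE, CENPF, KIF14, MKI67 and ANLN) and 0 lower, against 4% of all genes called, and the median was 0.13.

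**Figure D5:**
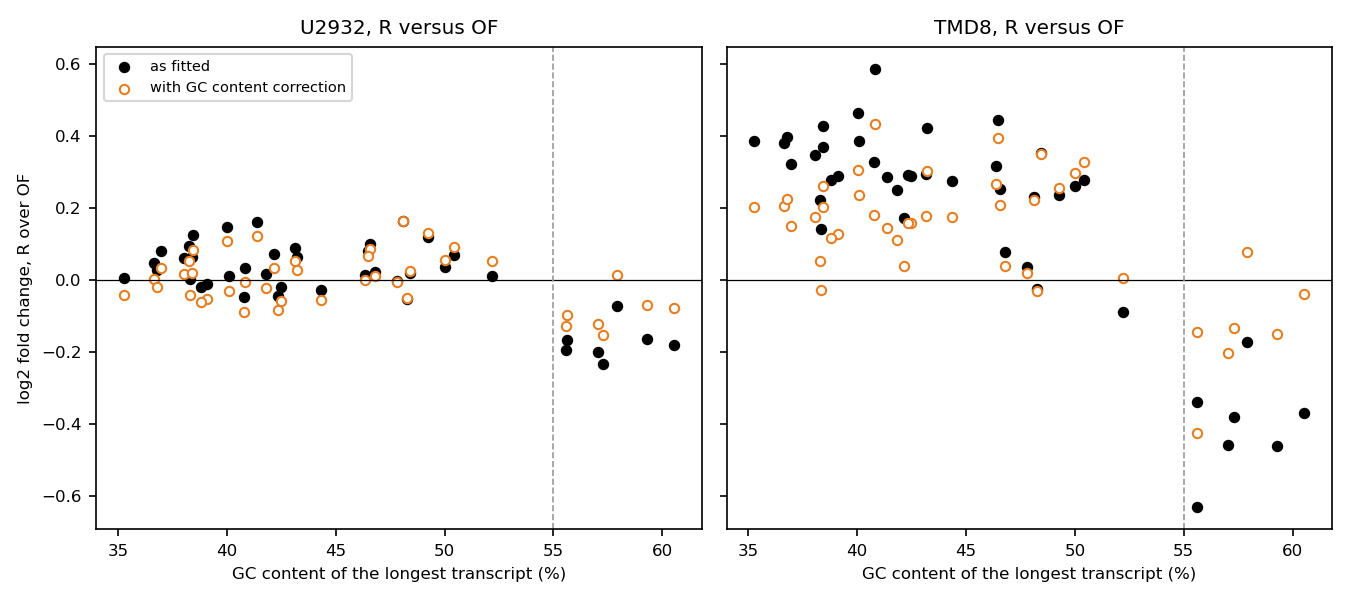
Log2 fold change of R over OF (y axis) of the 42 genes against the GC content of the longest transcript (x axis), in U2932 (left) and TMD8 (right), as fitted (black) and with GC content correction (orange), with a dashed line at 55%. In TMD8 the 7 genes to the right of the line all lie below 0 and 33 of the 35 to its left above 0, and both sides move toward 0 with the correction.

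Whether the lines responded differently was tested as an interaction between antibody and line over the 12 libraries. For R, 0 members were called (edgeR, adjusted p under 0.10) against 0.321% of all genes, 9 had an unadjusted p under 0.05, and DESeq2 called 4 (BUB1B, CENPF, KIF11 and KIF23). The median difference, U2932 minus TMD8, was −0.21 against 0.04 for all genes, and −0.08 with GC content correction. Without TMD8 isotype replicate 2 the median was 0.01, so it rested on that library. With the replicate block 4 members were called, all more negative in U2932, against 6.04% of all genes: KIF23 (−0.66 ± 0.15), BUB1B (−0.60 ± 0.14), CENPF (−0.67 ± 0.18) and CKAP2 (−0.49 ± 0.15). For OF, 0 members were called against 0.105% of all genes, with 0 at an unadjusted p under 0.05 and 0 in DESeq2. ANLN, which rose with R in both lines, gave −0.40 ± 0.18 for R and −0.09 ± 0.18 for OF, and BIRC5 0.47 ± 0.18 and 0.36 ± 0.18. The standard errors of these differences ran from 0.16 to 0.44 for members other than PRC1. Gaps well over their standard errors could still go uncalled without the block, such as CENPF for R (−0.685 ± 0.215, edgeR adjusted p = 0.252).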

How the data were processed

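RNA-seq was done on total RNA in 12 libraries, from 2 separately kept cultures of each line that each received the 3 antibodies. Per the submitters' processing notes, reads were handled with Trim Galore 0.6.0, cutadapt and FastQC, aligned with STAR 2.7.0e to GRCh38 (hg38), and analysed with DESeq2 1.26.0. The authors deposited raw counts per Ensembl gene, not normalized; the annotation release and the strand setting are not given in the sources used here. The table had 58884 rows, of which 27447 held no count in any library and 58611 matched GENCODE release 29, which gave symbols, positions, GC content and length (longest transcript). The 42 members and 8 lists of other cell cycle genes were chosen with earlier results of these data known.

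CPM values of the members use TMM library sizes, and those of the cell type markers use total counts. Genes were filtered with filterByExpr (at least 10 counts) and tested on the counts with edgeR 4.0.16 (quasi-likelihood test, R 4.3.3), in 1 fit per line over its 6 libraries for the antibodies and over all 12 for the lines and the interactions. P-values were adjusted over all genes tested by the Benjamini-Hochberg method, and a gene was called at an adjusted p under 0.10. Alternatives were DESeq2 1.42.0, other scalings and filters, GC content or gene length correction (lowess, span 0.3), other limits, other sets of libraries, and leaving out each library in turn. Counts by unadjusted p, in DESeq2, with a single library left out or in other alternatives stand without the share of all genes, unless it is printed. Counts without that share do not set the members apart from other genes. Each standard error was worked back from the test, as the size of the log2 fold change divided by the square root of its F statistic. Two-sided tests were used throughout, and the scripts were tested on simulated data.

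Per the labels' treatment protocol, each line was split into a pair of cultures that then received the 3 antibodies, so the replicate number marks the culture, and a replicate block was fitted as well. Over all genes, deviations of same-numbered libraries correlated at 0.18 to 0.58 in TMD8 and at −0.04 to 0.10 in U2932, and over the members at 0.72 to 0.83 and −0.39 to 0.12. Values in every library are given for 16 members that stand for the roles, for the 3 members of smallest adjusted p in each direction in each comparison with isotype, and for CENPA, chosen after its values were seen. Promoters came from RefSeq (GRCh38.p14) and were matched by symbol; BIRC5, TTK, AURKA, BUB3, FOXM1, UBE2C and TPX2 had no entry. Figures were drawn with matplotlib 3.10.9 (Python 3.11.15). With 15440226 to 27110612 counts per library, every member other than PRC1 held over 10 CPM. The parts of counting error and of the spread between cultures in the standard errors were not tested.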

Additional observations from a re-analysis of the deposited data

How the results depend on the processing

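The main counts of called members were 21 with R and 20 with OF in U2932, 1 and 0 in TMD8, 0 for R against OF in either line, 21 between the lines and 0 for each interaction. In U2932, 15 of the 21 and 16 of the 20 were called in all 9 settings of test, scaling, filter, block and correction over every library of the line. With all 12 libraries in one fit the counts were 5 with R and 5 with OF, with the 4 libraries compared alone 13 with R, and past 1.5-fold 4 and 4; between the lines 13 passed 1.5-fold. Leaving out each library gave 13 to 26 with R and 11 to 31 with OF in U2932, 0 to 1 and 0 to 2 in TMD8, and 0 to 2 for the R interaction.

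In TMD8 with R, DESeq2 called 2, the replicate block 8, the block with GC content correction 8 (CENPA in place of CDK1), all 12 libraries in one fit 7, DESeq2 with the block 8, and the 4 libraries alone or an adjusted p under 0.05 gave 0. With OF, DESeq2 called 2, no filter 2, GC content correction 1, the block 9, the block with GC content correction 10, 12 libraries in one fit 4 and DESeq2 with the block 8. For the R interaction DESeq2 called 4, the block 4, the block with GC content correction 2 and DESeq2 with the block 5, which also called 1 member between R and OF in TMD8 (CENPF). The replicate block changed no other comparison's count by over 1.5 times: it gave 21 with R and 23 with OF in U2932 and 30 between the lines. Where the share of all genes called is not given in the text above, the counts of this section do not set the members apart.

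DESeq2 with the block, and leaving out both TMD8 OF replicate 2 and isotype replicate 2, were chosen after seeing the data. The latter called 16 with R, 14 with OF, 5 between R and OF and 11 for the R interaction, with lone libraries assumed to vary like the R pair. It also turned the sign of PTTG1 with R in TMD8 (−0.37), of MKI67 between R and OF (0.50), and of KIF2C (−0.22) and FOXM1 (0.27) between the lines. Over single libraries left out, PTTG1 ran from −0.37 to 0.61, MKI67 from −0.40 to 0.50, KIF2C from −0.22 to 0.29 and FOXM1 from −0.60 to 0.27. With the block and GC content correction CDC20 between the lines was 0.22. The cause was not tested in any of these. Every comparison rests on 2 cultures per condition. In TMD8, changes well over their standard errors could still go uncalled without the block, such as NDC80 with OF (−0.98 ± 0.25, edgeR adjusted p = 0.166).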

Other observations

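PRC1, which encodes a microtubule bundler of the midzone, was counted at 0.5 to 1.4 CPM in every library, far under the other 41 genes. In GENCODE 29, 57.6% of its exon bases are also exon bases of another gene on the same strand, AC068831.7, and 7.35% lie in antisense genes. Over 10% of exon bases were shared with another gene for PLK1 (12.5%, antisense), BUB1B (10.2%) and FOXM1 (15.9%, antisense ITFG2) as well. Of the 42 genes, 13 have a pseudogene or other copy named after them in that annotation, among them UBE2C, NEK2 and AURKA, and reads could be split between such copies.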
